A study of Mus musculus with 12 samples.

Results

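The genes described here are the mouse ATP-binding cassette (ABC) genes of subfamilies A to G, chosen by symbol alone: Abc, a subfamily letter, a number and, for some, a last letter. Of 50 such RefSeq symbols, 46 had at least 1 probe on the array and 81 probes in all. A total of 38 were bright enough to be tested, among 23756 genes tested in the whole series, and 8 were too dim. Abca12, Abca16 and Abcb5 were among those with no matching probe, and Tap1, Tap2 and Cftr are ABC proteins whose symbols the choice leaves out. Single-colour arrays measured gene expression in mucosa scraped from the colon of chimeric mice, 1 mouse per array and 3 mice per group. All recipients were wild-type C57BL/6 mice, so only blood-forming cells could lack Muc1, the gene of a membrane mucin, while the epithelium kept it. KO_AOMDSS mice had marrow from C57BL/6 Muc1 knockout donors and had received azoxymethane (AOM), a colon carcinogen, and dextran sodium sulfate (DSS), which injures the colon lining. WT_AOMDSS mice had C57BL/6 wild-type marrow and the same treatment, KO_untreated mice had knockout marrow and no treatment, and WT_untreated mice had wild-type marrow and no treatment. AOM was injected at 12.5 mg/kg and followed, from 5 days later, by 2 rounds of 2% DSS in the water for 4 days with 14 days of plain water, then by 2.5% DSS for 5 days. The colon was taken 1 day after that.

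ABC proteins bind and split ATP, and most of them use it to move lipids, drugs, conjugates or peptides across a membrane. In the gut lining, P-glycoprotein, Abcg2 and Abcc2 sit on the luminal face of the cell and pump foreign compounds and conjugates back into the lumen, whereas Abcc1 and Abcc3 work on the side facing the blood. Other members carry cholesterol and phospholipid, feed fatty acids into peroxisomes or serve mitochondria, and the members of subfamilies E and F are soluble proteins of translation and ribosome recycling with no membrane part.

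All levels below are log2 signal minus the array's 75th percentile, so 0 is the brightness of a probe at that percentile. Levels of different probes are not comparable with each other, and changes are log2 differences ± SE. WT_AOMDSS 3 was the dimmest array, with a 75th percentile of 153.2 units beside 332 to 767.8 units elsewhere, and 58.1% to 78.3% of probes per array were well above background. There were 3 slides with 4 arrays each. KO_AOMDSS 1 and 2 shared slide 3, scanned on another day, with WT_AOMDSS 1 and 2. Slide 2 carried the third mouse of both treated groups beside KO_untreated 2 and 3, and slide 1 carried KO_untreated 1 beside all WT_untreated mice. No slide held both WT-marrow groups, so treatment and slide can be separated only in part, and fits with slide as a block were also made. Muc1 itself was at −2.41 to −0.99 in KO_AOMDSS mice, −3.53 to −1.47 in WT_AOMDSS mice, −3.80 to −2.12 in KO_untreated mice and −2.25 to −1.50 in WT_untreated mice. These ranges overlapped, and the KO minus WT difference in untreated mice was −1.11 ± 0.60 (adjusted p = 0.425), in tissue whose own cells kept the gene. The labels name separate mice, and p-values measure the spread between these mice. Where the arrays of a group lay on more than 1 slide, that spread includes slide differences unless slide was a block.

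In AOM+DSS-treated mice Abcb1a, Abcb1b, Abcb4, Abcc2 and Abca15 fell, and Abce1 and Abcg1 rose. These 7 of 38 ABC genes (18.4%) passed an adjusted p of 0.05 over both marrows (limma, Benjamini-Hochberg over all genes tested). Abcc2 and Abca15 were bright enough to be tested only through untreated groups, so a fall in them is partly built into that choice. Among all genes tested, 21% were called, 7.55% higher and 13.5% lower, so the share of ABC genes called was near that of all genes. The median change was −0.08 over the 38 genes and −0.19 over all genes, and 16 of the 38 changes were above 0. By subfamily, 3 of 8 tested B genes, 1 of 7 tested C genes and 1 of 10 tested A genes fell, while the single E gene and 1 of 6 tested G genes rose. None of the 3 D genes or of the 3 F genes passed in limma. The treated and untreated arrays of both marrows did not overlap for 2 of the 38 genes, Abcc2 lower and Abce1 higher, against 3.9% of all genes lower and 4.28% higher.

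**Figure D1:**
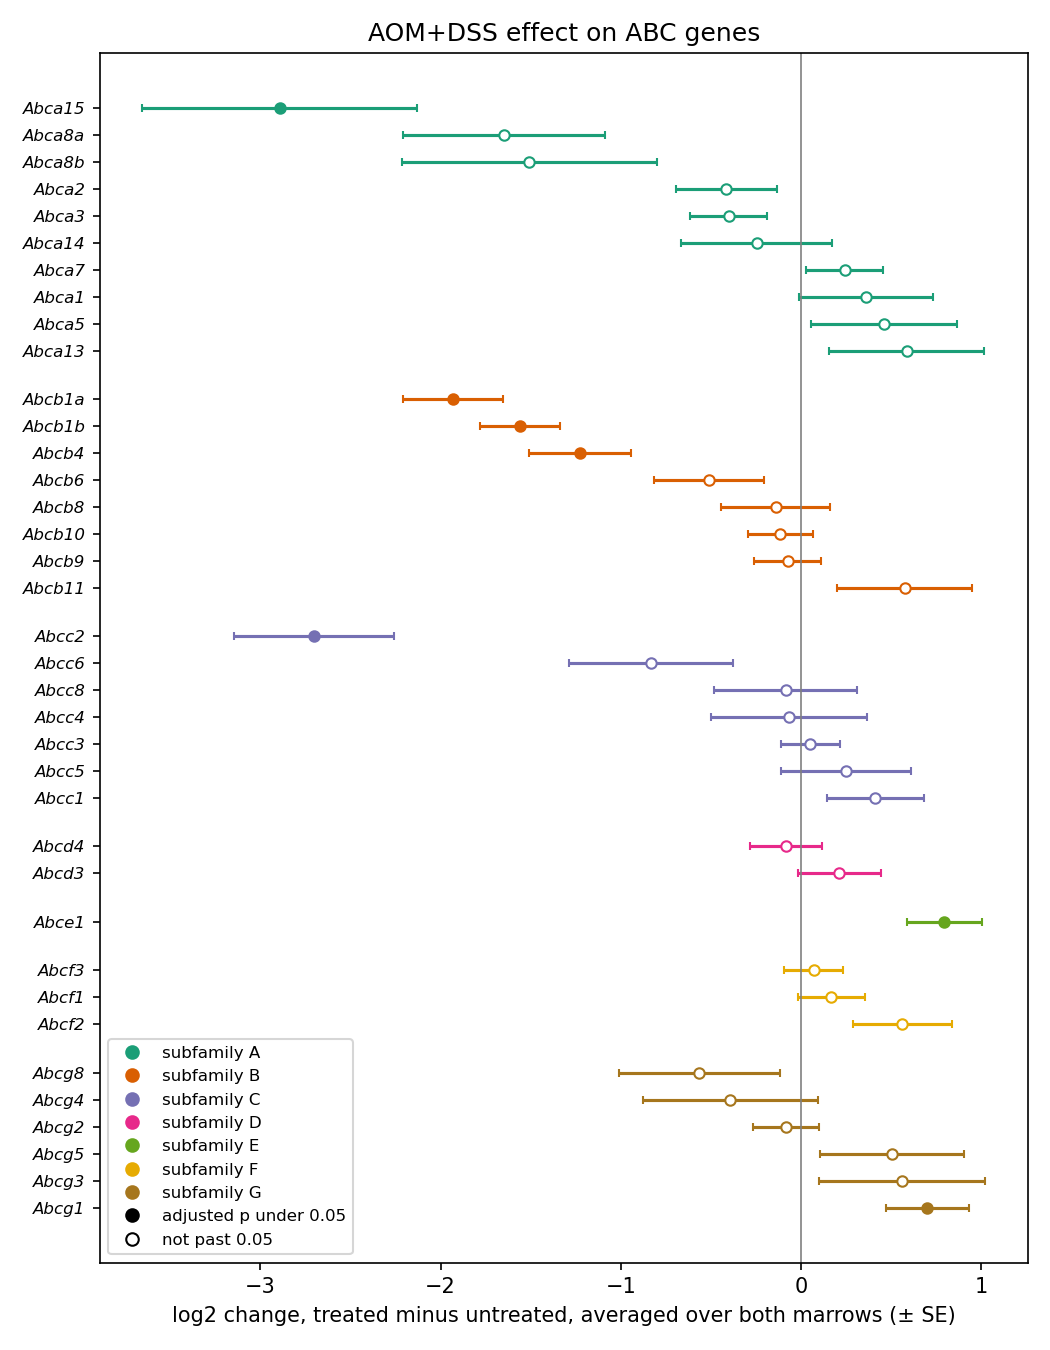
Log2 change, AOM+DSS-treated minus untreated mice averaged over both marrows, for the tested ABC genes reported here (x axis, points ± SE), ordered within each subfamily. Filled points passed an adjusted p of 0.05, and they run from −2.89 for Abca15 to 0.79 for Abce1.

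Abcb1a and Abcb1b together encode mouse P-glycoprotein, the pump that returns many drugs and toxins to the gut lumen, and Abcb4 encodes a phosphatidylcholine floppase best known from the bile canaliculus. Abcb1a was at 0.98, 0.32 and 1.92 in KO_AOMDSS mice, 0.33, 0.99 and 0.33 in WT_AOMDSS mice, 2.97, 3.56 and 3.45 in KO_untreated mice and 1.93, 1.81 and 2.74 in WT_untreated mice. Within each marrow every treated mouse lay below every untreated mouse, and across marrows only KO_AOMDSS 3 reached into the WT_untreated range. Its change was −1.93 ± 0.28 over both marrows (3.81-fold lower, adjusted p = 0.000727). Abcb1b was at 1.39, 1.20 and 2.30 in KO_AOMDSS mice, 0.75, 1.33 and 1.16 in WT_AOMDSS mice, 3.32, 3.37 and 3.33 in KO_untreated mice and 2.60, 1.99 and 2.88 in WT_untreated mice. The pattern by mouse was that of Abcb1a, with KO_AOMDSS 3 again the highest treated mouse, and the change was −1.56 ± 0.22 (2.95-fold lower, adjusted p = 0.000714). The second Abcb1b probe gave −1.42 (adjusted p = 0.00429), and the third was not well above background on any array. Abcb1a and Abcb1b are close copies, and whether their probes bind each other's transcript was not tested. Abcb4 was at 3.03, 2.79 and 4.29 in KO_AOMDSS mice, 2.30, 2.95 and 3.46 in WT_AOMDSS mice, 4.75, 4.96 and 4.91 in KO_untreated mice and 4.01, 3.29 and 4.25 in WT_untreated mice. The KO groups did not overlap, the WT groups did, and the change was −1.23 ± 0.28 (2.34-fold lower, adjusted p = 0.0114). In a bulk sample, fewer cells of a type and less RNA per cell cannot be told apart.

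Under a slide block all genes together had a median change of 0.46, so changes are also given less that median. Abcb1a then changed by −1.98 (adjusted p = 0.0468), or −2.43 less the median. Abcb1b changed by −1.20 (adjusted p = 0.0865, −1.66 less the median) and Abcb4 by −0.61 (adjusted p = 0.310, −1.07 less the median), both no longer called. Without the block the changes less the median were −1.74 for Abcb1a, −1.37 for Abcb1b and −1.04 for Abcb4. On slide 2 the array of 1 treated KO-marrow mouse lay beside those of 2 untreated ones. The changes there were −1.59 for Abcb1a, −1.05 for Abcb1b and −0.65 for Abcb4, beside a median of 0.29 for all genes. The lone treated array shows no spread of its own, so only these sizes are given.

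The 3 genes lie side by side on mouse chromosome 5, and with Abcc2 they kept their call over both marrows in at least 20 of the other settings, so the RefSeq sequence upstream of their annotated starts (GRCm38.p6, plus strand, 5′ to 3′) is shown. Capitals mark matches, on either strand, to the CCAAT box (CCAAT), the GC box (GGGCGG), the TATA box (TATAAA), the D-box (TTANGTAA), the E-box (CACGTG) or the AP-1 site (TGANTCA). The Abcb1a window is chr5:8566841-8567090, the Abcb1b window chr5:8797897-8798146, the Abcb4 window chr5:8893471-8893613, cut at the first annotated base of the gene, and the Abcc2 window chr19:43782058-43782307.
Abcb1a: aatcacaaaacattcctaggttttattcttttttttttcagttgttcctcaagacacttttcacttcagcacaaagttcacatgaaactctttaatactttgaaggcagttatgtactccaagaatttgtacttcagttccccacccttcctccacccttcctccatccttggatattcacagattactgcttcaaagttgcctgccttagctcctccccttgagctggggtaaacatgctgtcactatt
Abcb1b: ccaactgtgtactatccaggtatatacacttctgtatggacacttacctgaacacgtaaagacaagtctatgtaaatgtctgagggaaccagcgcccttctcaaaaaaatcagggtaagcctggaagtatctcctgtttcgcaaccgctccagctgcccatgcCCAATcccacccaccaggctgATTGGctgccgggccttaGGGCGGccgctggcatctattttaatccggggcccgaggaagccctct
Abcb4: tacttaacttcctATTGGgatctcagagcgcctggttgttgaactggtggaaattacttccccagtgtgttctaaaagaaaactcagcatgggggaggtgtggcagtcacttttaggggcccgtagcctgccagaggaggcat
Abcc2: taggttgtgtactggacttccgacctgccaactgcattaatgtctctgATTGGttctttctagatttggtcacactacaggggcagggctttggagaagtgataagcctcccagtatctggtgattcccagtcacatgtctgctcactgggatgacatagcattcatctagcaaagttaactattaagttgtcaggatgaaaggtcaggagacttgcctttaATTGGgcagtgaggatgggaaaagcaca
The Abcb1a window held none of the 6 motifs. The Abcb1b window held a CCAAT box on each strand, 87 and 66 bases before the start, and a GC box 48 bases before it. The Abcb4 window held a CCAAT box 237 bases before the start position of its RefSeq promoter entry, and the Abcc2 window held CCAAT boxes 202 and 28 bases before its start. Of 32851 promoter windows of 250 bases, 33.85% held a CCAAT box and 32.74% a GC box. The TATA box was found in 12.37% of them, the D-box in 2.061%, the E-box in 6.021% and the AP-1 site in 6.749%. No motif searched was shared by all 4 windows, and a match is a description of letters only.

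The next protein-coding genes on both sides of the 3 ABC genes were looked at after the values of the ABC genes had been seen. Rundc3b, beside Abcb1a, changed by −0.68 ± 0.21 (adjusted p = 0.0387) and Crot, beside Abcb4, by −0.48 ± 0.16 (adjusted p = 0.0495). Both fell by less than the 3 ABC genes, and under a slide block their values were −0.38 (adjusted p = 0.538) and −0.31 (adjusted p = 0.503). Slc25a40 and Tmem243, one gene further out, gave −0.53 (adjusted p = 0.499) and −1.02 (adjusted p = 0.263). Tmem243 stood at −1.42 and −3.47 on the treated arrays of slide 2 and at 0.68 to 0.78 on the other treated arrays, and under a slide block it changed by −3.26 (adjusted p = 0.00897).

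**Figure D2:**
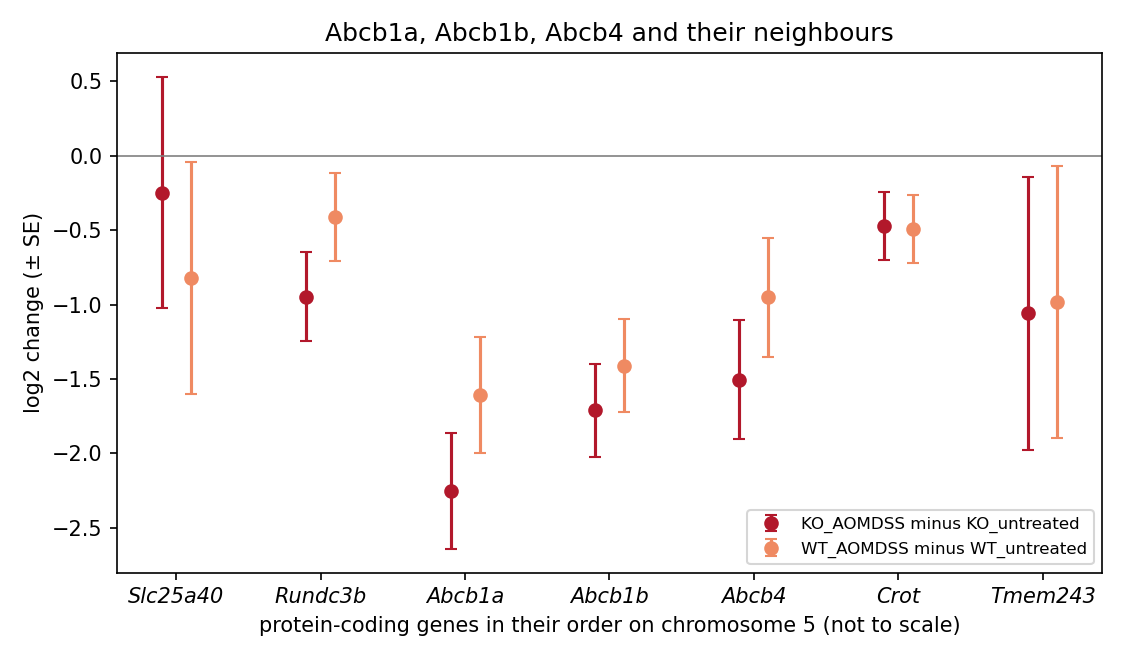
Log2 change (± SE) of Abcb1a, Abcb1b, Abcb4 and the neighbouring protein-coding genes in their order on chromosome 5, for KO_AOMDSS minus KO_untreated mice (left point of each pair) and WT_AOMDSS minus WT_untreated mice (right point). The 3 ABC genes lie between −2.25 and −0.95, and Crot lies at −0.47 and −0.49.

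Abcc2 encodes the luminal pump for glutathione, glucuronide and bilirubin conjugates. It was at −5.98, −6.67 and −5.43 in KO_AOMDSS mice, −5.96, −5.49 and −6.75 in WT_AOMDSS mice, −3.51, −3.15 and −2.75 in KO_untreated mice and −4.72, −2.89 and −3.06 in WT_untreated mice. All 6 treated mice lay below all 6 untreated mice, and the change was −2.70 ± 0.45 (adjusted p = 0.00189). The probe was dim: its signal was 1.42 to 17.0 units in treated mice and 18.3 to 84.0 units in untreated mice. It was well above background on 1 of 3 KO_AOMDSS and 2 of 3 WT_AOMDSS arrays against all 6 untreated arrays. The probe passed the filter only through the untreated groups, where it was high. A lower value in treated mice, over both marrows or within each, is therefore partly built into that choice. Normexp background correction, which adds 50 units to every signal, gave 0.32 (adjusted p = 0.627), the one setting of 21 without the call. A slide block gave −3.12 (adjusted p = 0.0477), and within slide 2 the change was −2.48 for the 1 treated KO-marrow mouse.

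Abcg2, the further luminal drug pump of the gut lining, did not pass the test. Its brightest probe was at 3.39 and 3.40 in 2 KO_AOMDSS mice, 3.87 and 3.20 in 2 WT_AOMDSS mice, 3.58, 3.62 and 3.76 in KO_untreated mice and 3.60, 3.47 and 3.27 in WT_untreated mice. KO_AOMDSS 2 and WT_AOMDSS 1 had no value because their spots were marked as outliers, and the fit left them out. The change was −0.09 ± 0.18 (adjusted p = 0.758), and the second probe, with no value for KO_AOMDSS 1 and WT_AOMDSS 2, gave −0.56 (adjusted p = 0.102).

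**Figure D3:**
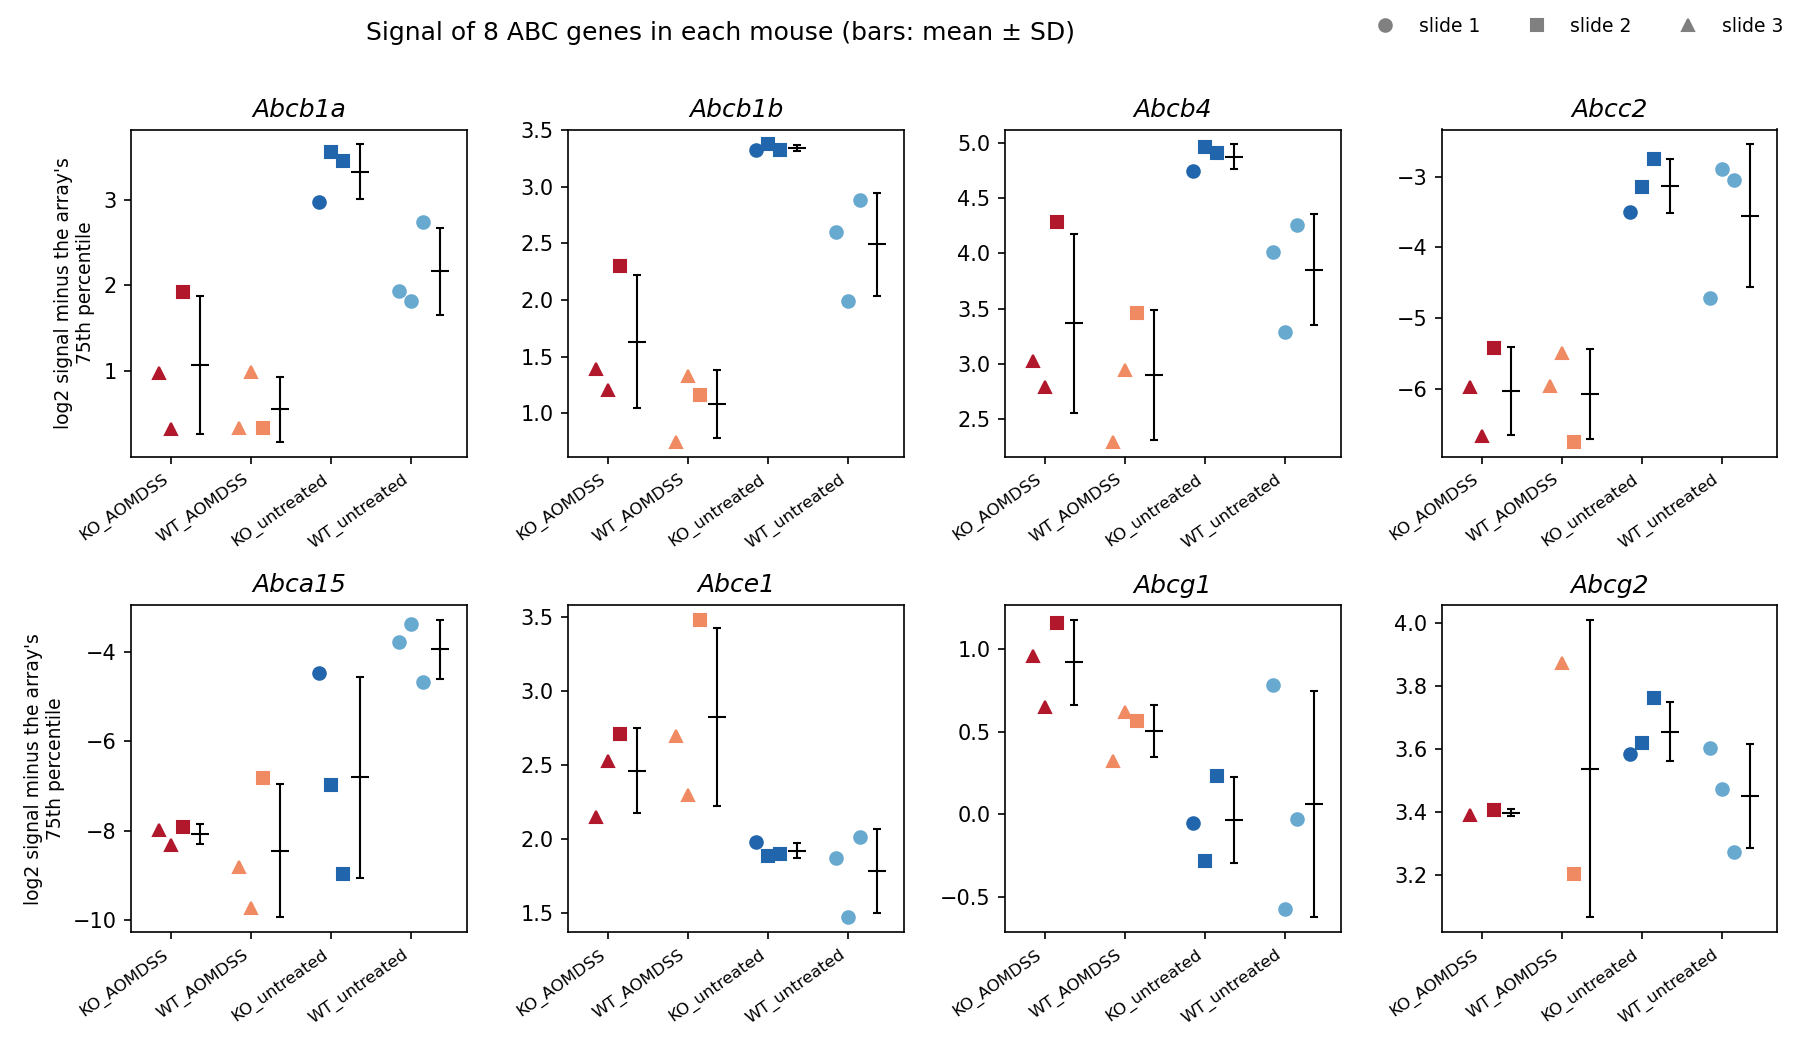
Level (log2 signal minus the array's 75th percentile, y axis) of 8 ABC genes in each mouse of the 4 groups (x axis), with symbols for the slide and bars for the mean ± SD. All treated mice lie below all untreated mice for Abcc2 and above them for Abce1, they overlap for Abcb1a, Abcb1b and Abcb4 through the KO_AOMDSS mouse on slide 2 and, for Abcb4, also the WT_AOMDSS mouse on it, and Abcg2 lies between 3.20 and 3.87 in all mice measured.

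The pumps of organic anions on the other faces of the cell did not pass the test. Abcc1, a basolateral pump for glutathione conjugates and leukotriene C4, was at 0.30, 0.81 and 1.64 in KO_AOMDSS mice, 0.79, 1.05 and 1.84 in WT_AOMDSS mice, 0.60, 0.59 and 1.28 in KO_untreated mice and 0.46, 0.17 and 0.86 in WT_untreated mice. The groups overlapped and the change was 0.41 ± 0.27 (adjusted p = 0.278), while its other kept probes gave −0.28 and −0.23, so the probes differed in sign. Abcc3, the basolateral pump for bile acids and glucuronides, was at 4.80, 4.70 and 5.26 in KO_AOMDSS mice, 4.91, 4.70 and 4.93 in WT_AOMDSS mice, 4.75, 4.82 and 4.82 in KO_untreated mice and 5.10, 5.06 and 4.46 in WT_untreated mice. All 12 mice lay within 4.46 to 5.26, with a change of 0.05 ± 0.16 (adjusted p = 0.844), and its dimmer probe gave −0.84 (adjusted p = 0.0826). Abcc4, which exports cyclic nucleotides and prostaglandins, was at 0.61, 0.63 and 1.53 in KO_AOMDSS mice, 0.91, 1.53 and −1.37 in WT_AOMDSS mice, 1.31, 0.76 and 0.81 in KO_untreated mice and 0.57, −0.33 and 1.14 in WT_untreated mice. WT_AOMDSS 3 was the lowest, and the change was −0.07 ± 0.43 with that mouse and 0.36 without it (adjusted p = 0.923 and 0.325). A second, dimmer Abcc4 probe gave 0.29 (adjusted p = 0.610). Abcc5, another exporter of cyclic nucleotides, was at −1.45, −2.68 and −0.54 in KO_AOMDSS mice, −1.37, −1.73 and −0.83 in WT_AOMDSS mice, −1.71, −2.54 and −1.85 in KO_untreated mice and −0.96, −1.14 and −1.89 in WT_untreated mice. The 4 groups overlapped, with a change of 0.25 ± 0.36 (adjusted p = 0.638), and a second, dimmer Abcc5 probe gave 0.98 (adjusted p = 0.148).

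Abcg1 rose, and Abca1, Abca7, Abcg5 and Abcg8, which also carry sterols or phospholipids, did not pass the test. Abcg1, which moves cholesterol out of macrophages and other cells to high-density lipoprotein, was at 0.96, 0.65 and 1.16 in KO_AOMDSS mice, 0.33, 0.62 and 0.57 in WT_AOMDSS mice, −0.05, −0.29 and 0.24 in KO_untreated mice and 0.79, −0.58 and −0.03 in WT_untreated mice. Every treated mouse lay above every KO_untreated mouse, and WT_untreated 1 lay among the treated mice. The change was 0.70 ± 0.23 (1.62-fold higher, adjusted p = 0.0486), close to the threshold, and the call was lost in 15 of 22 other settings, with adjusted p up to 0.251 with slide as a block. Abca1, the partner that loads cholesterol onto lipid-poor apolipoprotein, was at −2.10, −2.72 and −1.10 in KO_AOMDSS mice, −2.62, −1.09 and −1.89 in WT_AOMDSS mice, −2.39, −3.05 and −1.81 in KO_untreated mice and −2.64, −1.68 and −2.11 in WT_untreated mice. Its groups overlapped (0.36 ± 0.37, adjusted p = 0.501). Abca7, a phospholipid transporter tied to phagocytosis, was at 4.89, 4.28 and 4.77 in KO_AOMDSS mice, 4.88, 4.53 and 5.54 in WT_AOMDSS mice, 4.55, 4.25 and 4.72 in KO_untreated mice and 4.89, 4.87 and 4.16 in WT_untreated mice. It too overlapped between groups (0.24 ± 0.21, adjusted p = 0.427).

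Abcg5 and Abcg8 form the heterodimer that returns plant sterols and cholesterol to the gut lumen. Abcg5 was at 2.06, 3.68 and 2.60 in KO_AOMDSS mice, 2.53, 3.88 and 1.81 in WT_AOMDSS mice, 2.20, 2.49 and 2.83 in KO_untreated mice and 1.78, 1.18 and 3.06 in WT_untreated mice. KO_AOMDSS 2 and WT_AOMDSS 2 were the highest, and the change was 0.50 ± 0.40 (adjusted p = 0.374). Abcg8 was at −3.64, −2.73 and −3.17 in KO_AOMDSS mice, −4.09, −3.17 and −1.54 in WT_AOMDSS mice, −2.46, −4.06 and −3.96 in KO_untreated mice and −1.02, −1.79 and −1.67 in WT_untreated mice. The 3 WT_untreated mice and WT_AOMDSS 3 were the highest, and the change was −0.56 ± 0.45 (adjusted p = 0.374), while its second probe gave 0.95 (adjusted p = 0.200).

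The peroxisomal, mitochondrial and lysosomal members described here stayed short of the threshold. Abcd3, a peroxisomal carrier of branched and long chain acyl groups, was at 5.73, 5.04 and 6.27 in KO_AOMDSS mice, 5.56, 5.42 and 5.85 in WT_AOMDSS mice, 5.85, 5.26 and 5.24 in KO_untreated mice and 5.83, 5.45 and 4.97 in WT_untreated mice. The groups overlapped (0.21 ± 0.23, adjusted p = 0.519), and its 2 other probes gave 0.28 and 0.33. Abcd2, another peroxisomal member, was well above background on 1 array, WT_untreated, and was not tested.

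Abcb8 and Abcb10 are transporters of the inner mitochondrial membrane, and Abcb10 serves haem synthesis in red cell precursors. Abcb8 was at −0.08, 0.67 and −0.60 in KO_AOMDSS mice, 0.08, 0.27 and −0.71 in WT_AOMDSS mice, −0.29, 0.92 and 0.48 in KO_untreated mice and −0.69, −0.32 and 0.38 in WT_untreated mice. Abcb10 was at −0.75, −0.60 and −0.69 in KO_AOMDSS mice, −0.49, −0.56 and −0.71 in WT_AOMDSS mice, −0.65, −0.58 and −0.40 in KO_untreated mice and −0.21, −0.55 and −0.71 in WT_untreated mice. Both genes overlapped between all groups, with changes of −0.14 ± 0.30 (adjusted p = 0.758) and −0.12 ± 0.18 (adjusted p = 0.660). Abcb9, the lysosomal peptide transporter, was at 2.45 and 2.28 in 2 KO_AOMDSS mice, 2.33 and 2.13 in 2 WT_AOMDSS mice, 2.45, 2.00 and 2.18 in KO_untreated mice and 2.78, 2.61 and 2.23 in WT_untreated mice. Its spot was marked as an outlier in mouse 2 of both treated groups, and the change was −0.07 ± 0.19 (adjusted p = 0.795).

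Abcc8 and Abcc9 are not pumps but the sulfonylurea receptors, the regulatory subunits of ATP-sensitive potassium channels in endocrine cells and in muscle. Abcc8 was at −1.30, −2.02 and −0.61 in KO_AOMDSS mice, −1.74, −2.11 and 0.20 in WT_AOMDSS mice, −1.83, −1.81 and −1.77 in KO_untreated mice and −0.44, −0.02 and −1.20 in WT_untreated mice. WT_AOMDSS 3 and WT_untreated 1 and 2 were the highest, and the change was −0.09 ± 0.39 (adjusted p = 0.891). None of the 3 Abcc9 probes cleared background throughout a group. In WT_AOMDSS 2 they stood at −1.17, −3.42 and −4.06, the highest value of each probe. That mouse also had the highest mean level of 6 smooth muscle markers, 3.58 against −1.76 to 1.52 in the other mice, and the part of muscle in the Abcc9 signal was not tested.

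The soluble members include Abce1, which splits ribosomes after termination so that their subunits can be used again. It was at 2.15, 2.53 and 2.71 in KO_AOMDSS mice, 2.70, 2.30 and 3.48 in WT_AOMDSS mice, 1.98, 1.89 and 1.90 in KO_untreated mice and 1.87, 1.47 and 2.01 in WT_untreated mice. All 6 treated mice lay above all 6 untreated mice, and the change was 0.79 ± 0.21 (1.73-fold higher, adjusted p = 0.0204). The slide block gave 1.30 (adjusted p = 0.0415), or 0.85 less the median of all genes. A second, dimmer Abce1 probe went the other way (−0.45 ± 0.32, adjusted p = 0.320), and the mean of both probes gave 0.17 (adjusted p = 0.587). The call was also lost without WT_untreated 2 (adjusted p = 0.0564) and with normexp background correction.

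The F genes are soluble as well. Abcf1, a factor of translation initiation, was at 3.25, 3.57 and 3.17 in KO_AOMDSS mice, 3.29, 3.48 and 3.95 in WT_AOMDSS mice, 3.35, 3.17 and 3.77 in KO_untreated mice and 2.94, 2.92 and 3.56 in WT_untreated mice. Abcf2 was at 0.52, 1.14 and −0.41 in KO_AOMDSS mice, 0.81, 0.89 and −0.09 in WT_AOMDSS mice, −0.16, 0.22 and 0.01 in KO_untreated mice and −0.50, −0.15 and 0.08 in WT_untreated mice. Abcf3 was at 1.29, 1.05 and 1.03 in KO_AOMDSS mice, 1.09, 0.96 and 1.42 in WT_AOMDSS mice, 1.12, 0.67 and 0.94 in KO_untreated mice and 1.39, 1.23 and 1.07 in WT_untreated mice. For Abcf2 the 4 treated mice of slide 3 lay above all untreated mice and the 2 treated mice of slide 2 did not. The changes were 0.17 ± 0.19 for Abcf1, 0.56 ± 0.27 for Abcf2 and 0.07 ± 0.16 for Abcf3 (adjusted p = 0.532, 0.151 and 0.781), and Abcf2 gave −0.35 with slide as a block. Their second probes gave −0.05 for Abcf1, 0.84 for Abcf2 and −0.05 for Abcf3 (adjusted p = 0.957, 0.0506 and 0.900).

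Abca15, one of a group of mouse A genes known from testis, cleared background on no treated array, on KO_untreated 1 and on all WT_untreated arrays. It was at −7.98, −8.32 and −7.92 in KO_AOMDSS mice, −8.82, −9.73 and −6.81 in WT_AOMDSS mice, −4.47, −6.98 and −8.96 in KO_untreated mice and −3.78, −3.37 and −4.66 in WT_untreated mice. The 4 arrays above background were the 4 arrays of slide 1. Over both marrows it was 6.60-fold lower in treated mice, counted against the lowest signal well above background on each treated array (adjusted p = 0.0206). That fold is not a strict bound, because KO_untreated 2 and 3 were themselves below background. The gene passed the filter only through WT_untreated, where it was high. A lower value in treated mice, also with WT marrow alone, is therefore partly built into that choice. The fitted change became 0.34 under a slide block (adjusted p = 0.833), so treatment and slide cannot be told apart for this gene. The call was also lost without WT_untreated 1 (adjusted p = 0.0514) or WT_untreated 2 (adjusted p = 0.0574).

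The other 13 tested members, which no comparison called, had changes of −1.65 to 0.59. Abca8a and Abca8b, neighbours on the same chromosome, were at the low end (−1.65 ± 0.56 and −1.51 ± 0.71, adjusted p = 0.0523 and 0.137), and they were highest on the 4 arrays of slide 1. Under a slide block they gave 0.74 and 2.09. Abcb11, the bile salt export pump of the liver, was at −2.59, −3.06 and −1.95 in KO_AOMDSS mice, −2.80, −3.43 and −2.02 in WT_AOMDSS mice, −2.57, −3.67 and −4.12 in KO_untreated mice and −2.87, −2.59 and −3.46 in WT_untreated mice. On slide 2 both treated arrays lay far above both untreated arrays, and elsewhere the values overlapped. Its change was 0.57 ± 0.38 (adjusted p = 0.278) and became 2.11 under a slide block (adjusted p = 0.0370). The 8 dim genes were Abca4, Abca6, Abca9, Abca17, Abcc9, Abcc10, Abcc12 and Abcd2.

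The treatment effect was next taken within each marrow. With KO marrow, 3 of 38 ABC genes were called, all lower, among 3.15% of all genes called (1.85% higher and 1.3% lower). They were Abcb1a (−2.25 ± 0.39, adjusted p = 0.00716), Abcb1b (−1.71 ± 0.31, adjusted p = 0.00997) and Abcc2 (−2.89 ± 0.63, adjusted p = 0.0247), and Abcb4 gave −1.51 ± 0.40 (adjusted p = 0.0634). With 1 array left out, the count fell to 1, Abcb1a, without KO_AOMDSS 1, KO_untreated 2 or KO_untreated 3. Of all genes 1.62%, 1.27% and 1.06% were then called. A slide block also called 3, beside 7.27% of all genes: Abcb1a and Abcc2 lower and Abcb11 higher (2.02, adjusted p = 0.0303). KO_AOMDSS and KO_untreated values did not overlap for 8 ABC genes that were lower and 2 that were higher, against 12.5% and 11.2% of all genes.

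With WT marrow, 5 of 38 ABC genes were called, 4 lower and 1 higher, among 13.8% of all genes called (10.2% lower and 3.61% higher). They were Abcb1a (−1.61 ± 0.39, adjusted p = 0.0240), Abcb1b (−1.41 ± 0.31, adjusted p = 0.0186), Abcc2 (−2.51 ± 0.63, adjusted p = 0.0267), Abca15 (at least 18.2-fold lower, adjusted p = 0.0230) and Abce1 (1.04 ± 0.29, adjusted p = 0.0371). Abca15 passed the filter only through WT_untreated, so its lower value is partly built into that choice. With slide as a block Abca15 gave −0.11 (adjusted p = 0.973). Abcb4 gave −0.95 ± 0.40 (adjusted p = 0.117). WT_AOMDSS and WT_untreated values did not overlap for 9 ABC genes that were lower and 1 that was higher, against 22% and 11.2% of all genes. Scaling to the median in place of the 75th percentile called 4 genes, 3 higher and 1 lower, beside 21.7% of all genes. Abcb1a, Abcb1b and Abcc2 then gave −0.99, −0.80 and −1.90 (adjusted p = 0.159, 0.163 and 0.0558). With slide as a block 0 of the 38 were called in limma (9 at an unadjusted p under 0.05), beside 127 of all genes. Without WT_AOMDSS 1 the count was 0 (6 unadjusted), beside 2.11% of all genes. Leaving out WT_untreated 1, 2 or 3 left 1 call each, beside 2.05%, 2.2% and 8.04% of all genes. Leaving out WT_AOMDSS 3 gave 10, beside 32.2% of all genes.

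The marrows were not shown to differ in the treatment effect. None of the 38 differences between the marrows was called in limma, as for 0% of all genes, and 0 of the 38 had an unadjusted p under 0.05. With array weights 5 were called beside 27.2% of all genes, Abca14, Abca15, Abca8b, Abcc8 and Abcg8. For the genes that fell, the KO minus WT difference in effect was −0.65 ± 0.55 for Abcb1a, −0.30 ± 0.44 for Abcb1b, −0.55 ± 0.56 for Abcb4 and −0.38 ± 0.89 for Abcc2 (adjusted p = 0.897, 0.933, 0.900 and 0.959), and for Abca15 it was 3.25 ± 1.52 (adjusted p = 0.897).

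**Figure D4:**
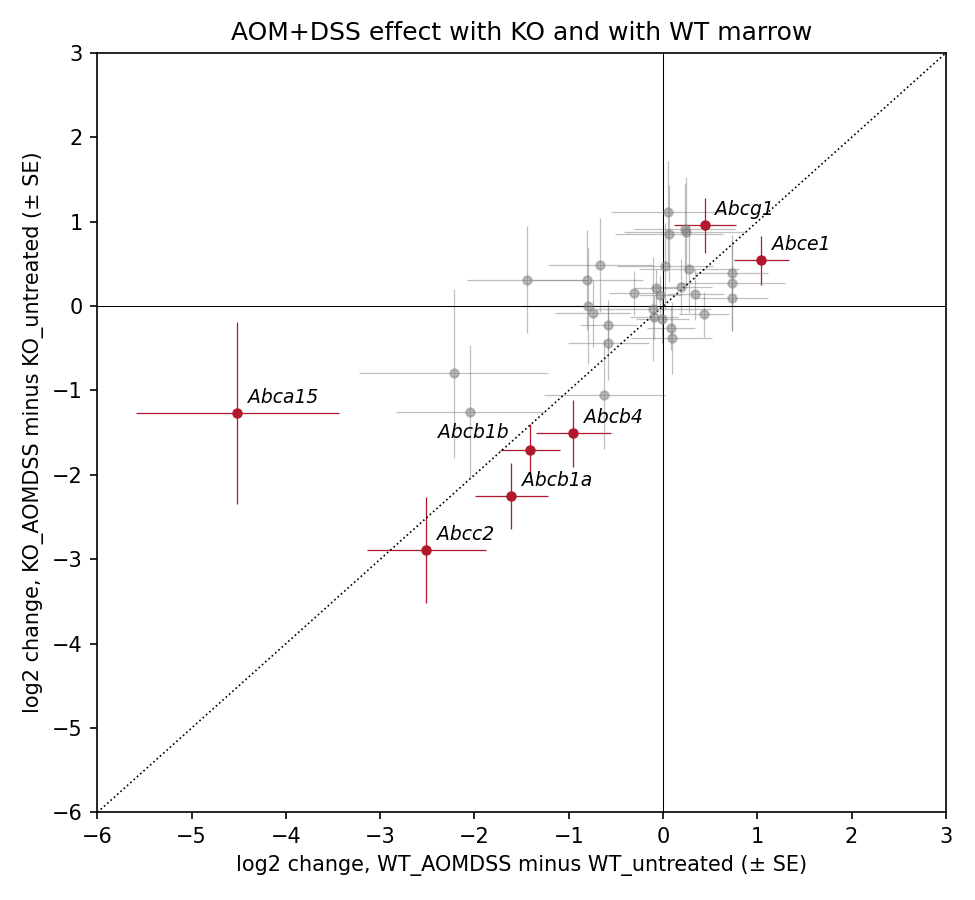
Log2 change of each tested ABC gene reported here with WT marrow (x axis, WT_AOMDSS minus WT_untreated) and with KO marrow (y axis, KO_AOMDSS minus KO_untreated), with SE bars and the line of equality dotted. The 7 genes called over both marrows are in red, and Abcb1a, Abcb1b, Abcb4 and Abcc2 lie near the line at the lower left.

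In untreated mice, KO marrow was set against WT marrow. None of the 38 ABC genes was called in limma, as for 0% of all genes, while 7 had an unadjusted p under 0.05 and 2911 of all genes did. KO_untreated mice lay above all WT_untreated mice for 3 ABC genes, Abcb1a, Abcb1b and Abcb4, against 6.17% of all genes, and below them for 4, Abca2, Abca14, Abcc8 and Abcg8, against 6.56% of all genes. The differences were 1.17 ± 0.39 for Abcb1a, 0.85 ± 0.31 for Abcb1b and 1.02 ± 0.40 for Abcb4 (adjusted p = 0.404 for each). On slide 1, KO_untreated 1 set against the 3 WT_untreated mice gave 0.80, 0.83 and 0.89. The lone KO-marrow array there shows no spread of its own, so only these sizes are given. Rundc3b next to them gave 0.82 ± 0.30 (adjusted p = 0.404) and Crot 0.08 ± 0.23 (adjusted p = 0.899). Abcg8 had the lowest unadjusted p of the 38 (0.00763, adjusted p = 0.404). Leaving out KO_untreated 1, the only one of its group on slide 1, gave 2 calls, Abca15 and Abcg8, both lower, beside 7.02% of all genes, and array weights gave 19, beside 44.6%.

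In treated mice the KO and WT marrows gave 0 called ABC genes in limma, as for 0% of all genes, and 0 with an unadjusted p under 0.05. Only Abcg1 had all KO_AOMDSS mice above all WT_AOMDSS mice (0.42 ± 0.33, adjusted p = 1.00), against 2.03% of all genes, and none had them all below, against 1.69% of all genes. On slide 2, with 1 array of each marrow, the difference was 1.58 for Abcb1a, 1.14 for Abcb1b and 0.82 for Abcb4. Neither marrow had a second treated array there to show its spread, so only these sizes are given. That comparison turns on WT_AOMDSS 3, the array of lowest signal, and on slide 3 the same genes gave −0.01, 0.26 and 0.29.

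Genes that work with the transporters were followed in lists, described over both marrows beside the median of −0.19 for all genes. Of the ABC proteins outside the naming pattern, Tap1 and Tap2, the antigen peptide pump, gave 0.58 ± 0.49 and 0.53 ± 0.35, and Cftr, the chloride channel, gave −0.84 ± 0.36 (adjusted p = 0.403, 0.290 and 0.104). Of 16 nuclear receptors and factors known to drive ABC genes, 3 fell and 0 rose, with a median of −0.40. Ppara, the fatty acid sensor, fell by 1.55 (adjusted p = 0.00131), Vdr, the vitamin D receptor, by 1.14 (adjusted p = 0.00299) and Hnf4a, a factor of enterocyte identity, by 0.49 (adjusted p = 0.0432). Nr1i2, the pregnane X receptor known to drive Abcb1a and Abcc2, gave 0.42 ± 0.17 (adjusted p = 0.0906). Of 8 bile acid handling genes 3 fell and 0 rose, with a median of −1.18, and these were Slc51a (at least 6.43-fold lower, with no WT_AOMDSS array well above background, adjusted p = 0.0157), Slc10a2 (−1.19, adjusted p = 0.0410) and Slco2a1 (−1.17, adjusted p = 0.00231). Of 16 liver X receptor and sterol response genes 1 rose, Apoe (2.46, adjusted p = 0.00188), and 0 fell, with a median of 0.16. Of 9 genes of peroxisomal fatty acid oxidation 1 fell, Acaa1a (−1.28, adjusted p = 0.0140), and 0 rose, with a median of −0.55. With slide as a block Acaa1a kept its call and the other 7 genes named as called lost theirs (adjusted p = 0.0553 for Vdr, 0.0563 for Ppara, 0.270 for Hnf4a, 0.116 for Apoe, 0.458 for Slc51a, 0.290 for Slc10a2 and 0.0937 for Slco2a1). The bile acid list then had 0 calls and a median of 0.14. Under the block Nr1h2, a liver X receptor (adjusted p = 0.0262), Insig1 (adjusted p = 0.0128) and Soat1 (adjusted p = 0.0483) were called lower.

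Cell type markers moved with the treatment, and their part in the ABC results was not tested. Of 12 absorptive colonocyte markers 8 fell and 0 rose, with a median of −1.67, among them the chloride exchanger Slc26a3 (−2.71) and the water channel Aqp8 (−1.61). Their mean level was 2.89 to 3.80 in KO_AOMDSS mice and 2.94 to 3.50 in WT_AOMDSS mice, against 4.67 to 4.86 in KO_untreated mice and 4.45 to 5.03 in WT_untreated mice. These groups did not overlap, as for Abcc2, and every marker was well above background on at least 8 arrays. Of 8 general epithelial markers 0 were called, with a median of −0.09 and a mean level of 6.57 to 7.09 in all mice. Of 5 goblet cell markers 0 were called, with a median of −0.18. Of 10 monocyte and macrophage markers 9 rose, with a median of 2.39, and of 8 neutrophil markers 8 rose, with a median of 5.47. The mean macrophage level was −0.26 to −0.09 in KO_AOMDSS mice and −0.59 to −0.07 in WT_AOMDSS mice, against −3.01 to −2.20 in KO_untreated mice and −2.64 to −1.42 in WT_untreated mice. Both this level and Abcg1 rose with treatment, while WT_untreated 2 had the highest macrophage level of the untreated mice and the lowest Abcg1. The part of macrophages in the Abcg1 signal was not tested. Of the remaining lists, 5 of 6 fibroblast markers and 2 of 5 squamous markers rose, while 1 squamous, 3 of 4 red blood cell and 1 of 4 endothelial markers fell. None of the markers of B cells (5), T cells (6), smooth muscle (6), adipocytes (5) or enteric neurons and glia (6) was called. With slide as a block 4 colonocyte markers fell, and 5 macrophage, 8 neutrophil, 1 fibroblast and 1 squamous markers rose. The calls on red blood cell and endothelial markers were then lost, and Cdx1 of the epithelial list and Actg2 of the smooth muscle list were called lower.

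**Figure D5:**
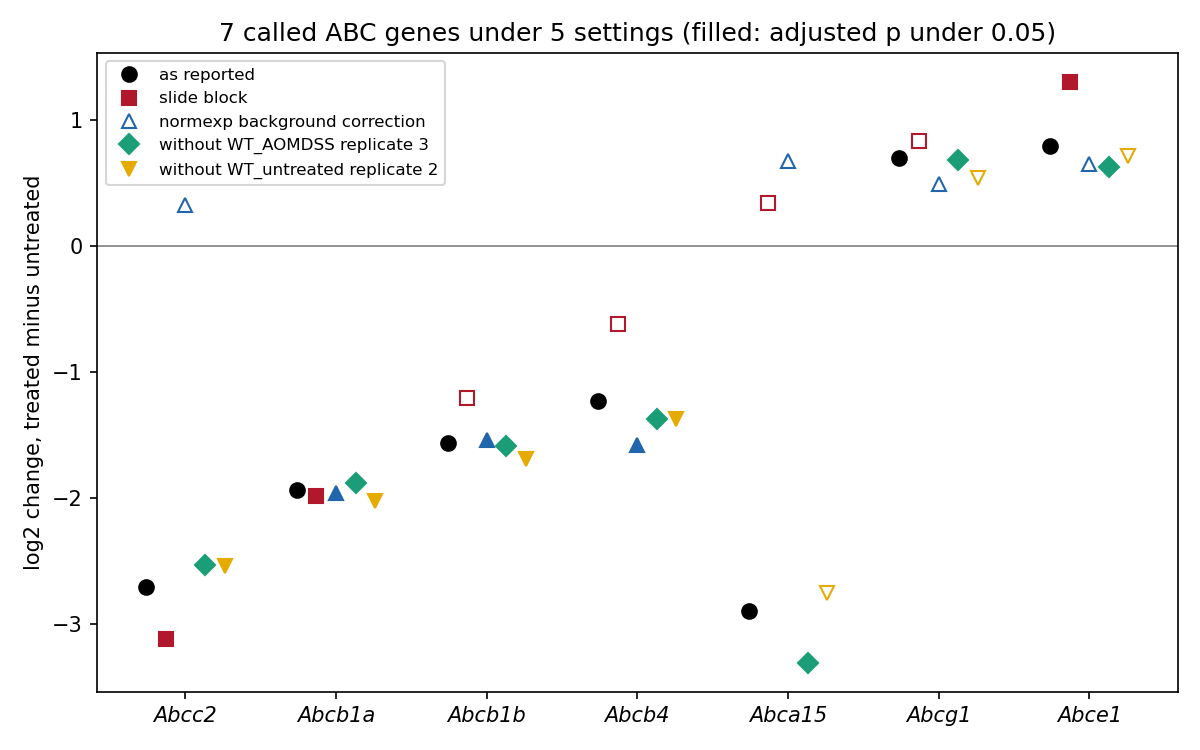
Log2 change, treated minus untreated over both marrows (y axis), of the 7 called ABC genes as reported and under 4 other settings, with filled symbols for an adjusted p under 0.05. Abcb1a is filled in all 5 settings and lies between −2.02 and −1.88, while Abcc2 changes sign with normexp background correction and Abca15 with that correction and with the slide block.

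Over both marrows the call on Abcb1a held in all 22 other settings run, with changes of −2.14 to −1.59, and those on Abcb1b and Abcb4 in 21 of 22, each lost with slide as a block. Leaving out WT_AOMDSS 3, the array of lowest signal, gave 12 called ABC genes beside 37.6% of all genes, among them the 7 above, Abca8a, Abca8b and Abcb6 (lower) and Abcf2 (higher). Without WT_untreated 2, 4 were called beside 11.8% of all genes, Abcb1a, Abcb1b, Abcb4 and Abcc2.

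The authors' deposited table of 2506 probes, chosen by a rule not given in the sources used here, held 7 probes of 5 ABC genes, Abcb1a, Abcb1b, Abcb4, Abcc2 and Abcc6. That is 8.64% of the ABC probes, against 6.08% of all probes. In the authors' deposited table, Abcc2 changed by −2.88 with KO marrow and −2.49 with WT marrow, treated minus untreated on the log2 scale. Abcc6, a liver and kidney exporter of ATP, gave −1.04 and −0.60 in the authors' deposited table, and in the fit here it gave −0.84 ± 0.46 over both marrows (adjusted p = 0.195).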

How the data were processed

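Deposited by the authors were the scanner files of 12 Agilent mouse arrays of 1 colour, and per the file headers Feature Extraction 10.7.3.1 wrote them. The values are linear spot intensity, already corrected for background by the scanner software and not scaled between arrays, per the file headers. A deposited table of the series holds the authors' log2 group means of 2506 probes, of which 2504 were matched. Against the arrays they were log2 group means less each probe's median over all arrays.

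In R 4.3.3 with limma 3.58.1 and data.table (version 1.17.8), log2 processed signal less its 75th percentile per array was used. Control spots were left out, spots marked as outliers were set to missing, and spots of a probe were averaged. Accessions in the files were matched to RefSeq (GRCm38.p6, names only), which named 24375 of 41174 probes. Kept probes (30230) cleared background (the scanner's well-above-background mark) throughout at least 1 group of 3 arrays, and the probe with the highest mean stood for its gene. A mean per group was fitted to all arrays over 23756 genes, with variances following an intensity trend (8 residual and 4.94 prior degrees of freedom) and Benjamini-Hochberg adjustment within each of 6 comparisons, at 0.05. Where a probe was not above background in a whole group, "at least" folds set the brighter group's mean against, per array, the lowest signal marked well above background, or the probe's own where higher. Named genes were the called members, members fixed by role, and called genes of the lists, and one result is not reported here. The members and lists were chosen with earlier results of these data known. Alternatives were other scalings, normexp on median signals (offset 50), other filters, the mean of probes, no trend, array weights, slide or replicate as a block, single slides and each array left out. Same-number KO_AOMDSS and WT_AOMDSS mice shared slides and deviated together (r = 0.42, 0.31 and 0.51). The number of arrays limits the precision. The code was tested on simulated data.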

Additional observations from a re-analysis of the deposited data

How the results depend on the processing

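Against 7 ABC genes called over both marrows, normexp background correction called 3 (10% of all genes), array weights 16 (52.5%) and slide as a block 4 (6.21%). Leaving out 1 array gave 4 to 12 (11.7% to 37.6%). Against 3 with KO marrow, array weights called 8 (21.2% of all genes) and slide 2 alone 13 (26.4%), and leaving out 1 array gave 1 to 4. On slide 2 the treated KO-marrow group was 1 array, with no spread of its own, so nothing is concluded from the count of 13. Against 5 with WT marrow, normexp called 2 (3.6%) and a filter for probes well above background on all 12 arrays 3 (11.4%). Array weights called 15 (49.6%) and slide as a block 0 (0.535%), and leaving out 1 array gave 0 to 10 (2.05% to 32.2%). KO against WT marrow in untreated mice, with 0 called, gave 19 with array weights (44.6%) and 0 to 2 with 1 array left out (0% to 7.02%). The difference between the marrows in the effect gave 0, and 5 with array weights (27.2%). The cause of these moves was not tested, apart from fewer arrays or genes where a setting leaves some out. Array weights ran from 0.137 for WT_AOMDSS 3 to 3.08 for KO_untreated 2. Of 18 same-number pairs of mice 7 correlated above 0.1 (r from −0.38 to 0.51), 3 of them the KO_AOMDSS and WT_AOMDSS pairs, where a replicate block on the treated mice alone, added after seeing the data, also called 0. In the other comparisons the numbers did not pair mice. With the replicate block the counts were 7 over both marrows (19% of all genes), 4 with KO marrow (2.99%) and 5 with WT marrow (9.8%). The other comparisons gave 0.

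Of the called members, normexp turned the sign of Abcc2 (0.32 over both marrows, 0.78 with WT marrow) and of Abca15 (0.68 and 0.85), and slide as a block that of Abca15 (0.34). The signals of both lay near or below the 50 units that normexp adds. Members that were not called and changed sign over both marrows were these. With median scaling Abcg2 gave 0.15, Abcc4 0.27, Abcb8 0.20, Abcb10 0.22, Abcb9 0.15 and Abcc8 0.25, and with quantile normalization Abcc8 gave 0.011. With normexp Abcc3 gave −0.23, Abcg8 0.27, Abcd3 −0.15, Abcb10 0.024, Abcc8 0.0089 and Abcf1 −0.16. With the mean of probes Abcc1 gave −0.031, Abcc3 −0.40, Abcc4 0.11 and Abcg8 0.19, and with array weights Abcc3 gave −0.047, Abcc4 0.31 and Abcb9 0.020. With slide as a block Abcg5 gave −0.36, Abcg8 1.17, Abcb9 0.069, Abcc8 0.94 and Abcf2 −0.35. With 1 array left out, the ranges that crossed 0 were −0.25 to 0.082 for Abcg2, −0.053 to 0.11 for Abcc3, −0.36 to 0.36 for Abcc4, −0.0057 to 0.53 for Abcc5, −0.31 to 0.0077 for Abcb8 and −0.44 to 0.14 for Abcc8. In all, 589 of the single-gene values kept direction and side of the threshold, 63 lost and 4 gained a call and 46 changed sign.

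Limits are dim probes kept only through untreated groups (Abcc2, Abca15), the partial overlap of treatment with slide, and 3 mice per group.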
